A study of Mus musculus with 24 samples.

Results

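Cytosolic ribosomes are assembled from ribosomal RNA and a fixed set of proteins, each coded by a gene of its own. Of the 24421 genes in the count table, 81 were taken as cytosolic ribosomal protein genes by their symbols alone. The symbol had to be Rpl or Rps followed by a number, or Rplp0, Rplp1, Rplp2 or Rpsa, with a final a, l or x allowed. Rps6k kinases, Rps19bp1 and symbols marked as pseudogenes were left out. The 81 hold 49 genes of the large subunit (Rpl) and 32 of the small subunit (Rps), on 19 chromosomes. Of these, 76 had enough counts to be tested.

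Polyadenylated RNA was sequenced from MIN6, an insulin-secreting line derived from a mouse insulinoma. All cells had been transfected with a plasmid, which expressed either EIF2A fused to GFP (called EIF2A here) or GFP alone (called GFP). Each construct was sampled after 1 µM thapsigargin for 1 h or 3 h, and after DMSO vehicle, called 0 h, whose samples the labels also list as untreated. This makes 6 groups of 4 libraries: EIF2A at 0, 1 and 3 h and GFP at 0, 1 and 3 h. Plasmid expression is transient, MIN6 is a tumour line, and nothing in the labels ties the 4 replicates of a group to separate cultures. What the p-values weigh is thus the scatter among these libraries, which may be technical. The study asked how EIF2A bears on beta cells under endoplasmic reticulum stress.

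Ribosomal protein genes are among the most strongly expressed housekeeping genes, and their products are made in equal numbers because each ribosome takes one copy of most of them. Their mRNAs begin with a 5′ terminal oligopyrimidine (TOP) tract, a cytosine followed by a run of pyrimidines, through which the kinase complex mTORC1 and the RNA-binding protein LARP1 control their translation and stability. Thapsigargin inhibits SERCA, the pump that fills the endoplasmic reticulum with calcium, and triggers the unfolded protein response, in which phosphorylation of eIF2 lowers protein synthesis. EIF2A is a separate factor that can deliver initiator tRNA to ribosomes.

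Start-site sequences are shown for the genes with the lowest and the highest response to 3 h of thapsigargin, because the TOP tract begins at the transcription start. Promoter windows of RefSeq (GRCm38.p6) matched 60 of the 81 genes, at 72 listed starts. Each line runs 5′ to 3′ along the gene's strand, from 60 bases before the most upstream listed start to 20 bases from it. Capitals mark runs of 8 or more pyrimidines (C or T). The first 4 genes had the lowest log2 fold changes in GFP and the next 4 were among the highest.
Rpl41, chr10:128549149-128549228, minus strand: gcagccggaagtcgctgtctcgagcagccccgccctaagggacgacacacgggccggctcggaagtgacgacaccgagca
Rpl39, chrX:37085203-37085282, minus strand: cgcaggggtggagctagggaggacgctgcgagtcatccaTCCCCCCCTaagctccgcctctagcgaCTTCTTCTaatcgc
Rps28, chr17:33824543-33824622, minus strand: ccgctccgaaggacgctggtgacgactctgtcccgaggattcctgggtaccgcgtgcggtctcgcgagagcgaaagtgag
Rpl11, chr4:136053374-136053453, minus strand: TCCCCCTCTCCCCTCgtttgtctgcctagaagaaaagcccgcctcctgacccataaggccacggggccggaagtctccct
Rps27, chr3:90213629-90213708, minus strand: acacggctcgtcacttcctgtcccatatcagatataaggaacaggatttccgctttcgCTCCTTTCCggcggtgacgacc
Rpl10a, chr17:28328411-28328490, plus strand: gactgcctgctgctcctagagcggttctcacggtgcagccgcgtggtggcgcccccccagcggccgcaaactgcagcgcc
Rps6, chr4:86857348-86857427, minus strand: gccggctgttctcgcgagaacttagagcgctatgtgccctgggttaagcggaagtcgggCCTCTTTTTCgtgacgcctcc
Rpl4, chr9:64173327-64173406, plus strand: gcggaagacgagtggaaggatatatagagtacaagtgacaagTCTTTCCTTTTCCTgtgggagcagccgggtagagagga

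In these windows Rpl39, Rps27, Rps6 and Rpl4 have a marked run within 25 bases of the start, and Rpl41, Rps28 and Rpl10a have none. The marked run of Rpl11 lies farther upstream. Rpl11 also has a run within 25 bases of the start, which is unmarked because it extends past the printed end. A run of 8 or more pyrimidines on the gene's strand lay within 25 bases of a start in 53.3% of the 60 matched members, against 22.8% of 10446 matched tested genes. The 5 letters CTTTC were found in that stretch in 31.7% of the members and 6.88% of tested genes. CCGGAAG on either strand, anywhere in 300 bases around the start, was found in 41.7% of the members and 19.2% of tested genes. As a description, the median log2 fold change in GFP at 3 h was -0.38 over the 31 tested members with the pyrimidine run and -0.43 over the 25 without. It was -0.45 over the 23 with CCGGAAG and -0.39 over the 33 without. A match is only a match of letters, and a window without one says nothing about the factor.

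Libraries held 10.5 to 22.2 M counts, and counting error is therefore small for most members. Replicate 1 stood apart and went against its labels. Eif2a, the gene the plasmid overexpresses, had 80.2, 96.9 and 104 CPM (counts scaled to a common library size, here with TMM, the trimmed mean of M values) at 0, 1 and 3 h in the libraries labelled EIF2A replicate 1, and 269, 361 and 358 CPM in those labelled GFP replicate 1. In replicates 2 to 4 the order was the reverse, at 134 to 209 CPM in the libraries labelled EIF2A and 77.8 to 102 CPM in those labelled GFP. Comparisons of the constructs are therefore given with and without replicate 1, and each construct name stands for the label. Marker values are CPM of library totals, without TMM. The 10 beta cell markers, led by the insulin genes, summed to 40973 to 103788 CPM, and none of them was at 0. Of 4 alpha cell markers, Gcg reached 903 CPM and Ttr 1526 CPM. The duct list was carried by Spp1, at 12.5 to 716 CPM, while Krt19 and Sox9 reached at most 0.51 CPM. Markers of acinar, delta, PP and endothelial cells summed to at most 2.16 CPM in any library, macrophage markers to at most 15.1 CPM and mesenchymal ones to at most 20.8 CPM.

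The 81 genes took 2.10 to 3.10% of all counts in the 4 EIF2A libraries at 3 h and 2.49 to 3.57% in those at 0 h. In GFP they took 1.87 to 2.31% at 3 h and 2.31 to 2.74% at 0 h. Means were 2.65 ± 0.41% at 3 h against 3.13 ± 0.46% at 0 h in EIF2A, and 2.03 ± 0.20% against 2.45 ± 0.19% in GFP (SD, n = 4 each). Within each replicate number and construct the share was lower at 3 h than at 0 h, in 8 of 8 pairs. In bulk RNA, fewer cells and less RNA per cell cannot be told apart, and a share says nothing of the absolute amount. The summed beta cell markers, in CPM of library totals without TMM, moved the same way. They were at 55676 to 63787 CPM at 3 h against 81941 to 100828 CPM at 0 h in EIF2A. In GFP they were at 40973 to 64661 CPM at 3 h against 73741 to 100128 CPM at 0 h. Their part in the result was not tested.

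**Figure D1:**
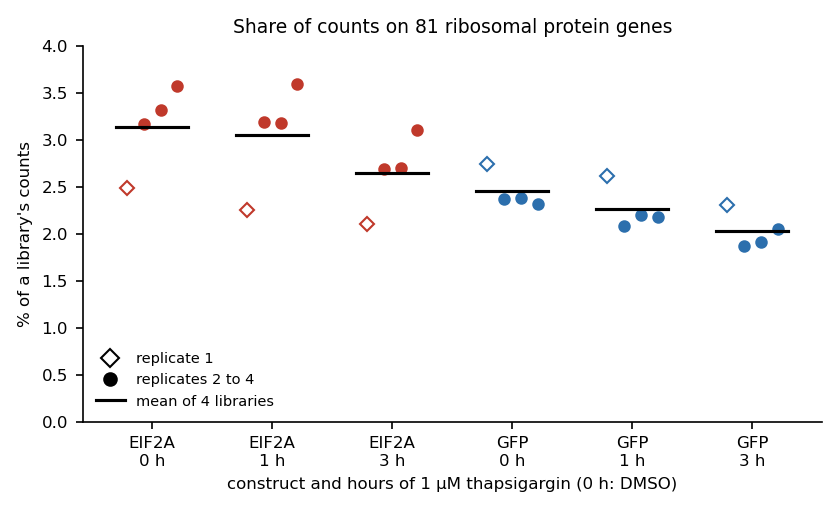
Share of all counts on the 81 ribosomal protein genes, in percent, for each library of the 6 groups. Points are libraries (open diamonds are replicate 1), bars are group means; the share is lowest at 3 h in both constructs, and replicate 1 lies below the other EIF2A libraries and above the other GFP libraries.

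Among members the levels spanned a wide range. Of the 76 tested, 73 had a mean of 91.4 to 1242 CPM over all libraries, with a median of 310.1 CPM. Per kb of transcript the highest level was that of Rpl41, a very short peptide of the large subunit, followed by Rps15, Rpl13a, Rpl8 and the stalk protein Rplp1. Their levels per kb were 1779.6, 1392, 1186, 1182 and 1138 CPM. The lowest tested were Rpl30, Rps27 and Rpl34, at 4.75, 2.98 and 7.03 CPM in mean. Rpl26 had 5 counts in all 24 libraries together, although its protein belongs to every ribosome. Rpl10l, Rpl39l, Rpl3l and Rps4l, copies that are mostly testis or muscle genes or a transcribed pseudogene, had 4, 19, 32 and 38 counts and were not tested either.

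Copies elsewhere in the genome make these levels uncertain. A median of 56.5% of the 50-base words of a member's transcripts also occurred in transcripts of other genes. The share was 98.6% for Rps27, 88.1% for Rpl10a and 84.6% for Rps6, but 16.5% for Rpl39 and 22.4% for Rps27l. How the authors' counting treated reads that match several places is not given in the sources used here. Across the 76 members the shared percentage and the 3 h response in GFP had a rank correlation of 0.20, as a description.

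After 3 h of thapsigargin, ribosomal protein mRNAs were lower as a group in both constructs. In EIF2A, 35 of 76 tested members fell and 1 rose, by edgeR's quasi-likelihood test with Benjamini-Hochberg adjustment over 13761 genes (adjusted p under 0.05). Of all tested genes 16.6% fell and 19.6% rose in that comparison. In GFP, 35 members fell and none rose, against 14.6% and 18.4% of all genes. DESeq2 called 49 members lower and 0 higher in GFP, against 17.7% and 18% of all genes. In EIF2A DESeq2 called 41 lower and 0 higher, against 18.5% and 19.3%. Leaving out 1 library moved the count of members that fell to between 20 and 50 in EIF2A, lowest without EIF2A 0 h replicate 4 (20), EIF2A 3 h replicate 1 (21) or EIF2A 0 h replicate 3 (22). In GFP it ran from 18 to 46, lowest without GFP 0 h replicate 1 (18), GFP 3 h replicate 3 (18) or GFP 3 h replicate 2 (19). The shares of all genes in these refits are not given here, so the ranges show only how the count moved. The 1 rise in EIF2A was lost with DESeq2 and with RLE scaling. The median log2 fold change of the members was -0.40 in EIF2A and -0.39 in GFP, against -0.010 and -0.0024 over all genes. Scaling by library totals alone raised the median of all genes by 0.15 in EIF2A and by 0.12 in GFP and the members were then at -0.23 and -0.28, with 20 and 21 of them lower. That scaling also moved the split of all calls, to 9.71% lower and 27.7% higher in EIF2A and 9.78% lower and 24.4% higher in GFP.

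Of the 35 members that fell in each construct, 30 fell in both, 85.7% of either list. The 5 that fell only by the EIF2A test were Rpl37a, Rps14, Rps15, Rps16 and Rps21, and the 5 only by the GFP test were Rpl7, Rpl10, Rpl23a, Rpl35a and Rps9. By the test of the interaction, no member passed at 3 h over all 24 libraries, and 3 passed lower with replicate 1 left out and the replicate block added. The EIF2A and GFP log2 fold changes, which come from separate libraries, had r = 0.95 and rho = 0.91 over the 76 members, as a description across genes.

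Same-numbered libraries of a construct deviated together from their group means (r from 0.51 to 0.93). Without replicate 1, r was only -0.026 to 0.22, so the pairing rests mainly on replicate 1 and is uncertain for the other numbers. A fit with the replicate number as a block gave more calls. With it, 70 members fell in EIF2A and 69 in GFP, where 33.3% and 33.5% of all genes fell, and 2 and 1 rose, against 32.9% and 33.6% of all genes. Without replicate 1, 66 and 69 fell, against 31.4% and 30.8% of all genes, and 2 and 1 rose, against 31.2% and 32.2%. By replicate number, the median change of the members was -0.35, -0.41, -0.52 and -0.38 in EIF2A and -0.39, -0.48, -0.44 and -0.29 in GFP for replicates 1 to 4. All 8 were negative, while the medians of all genes stayed between -0.014 and 0.0077.

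**Figure D2:**
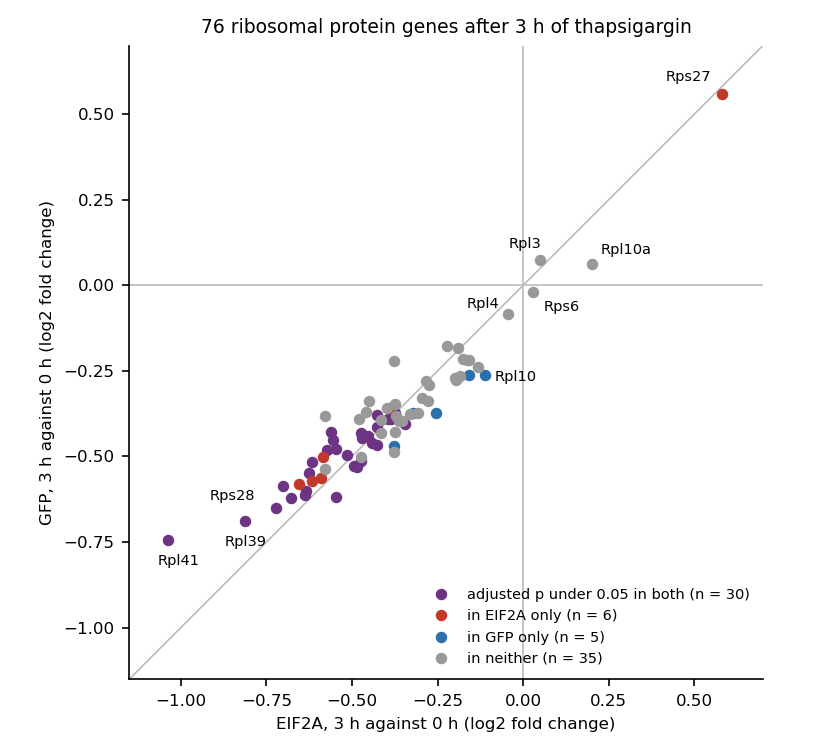
Log2 fold change at 3 h against 0 h of each of 76 tested ribosomal protein genes, in EIF2A (horizontal) and GFP (vertical). Colours give the adjusted p under 0.05 and the grey diagonal marks equal change; most points lie between -0.7 and -0.2 on both axes, with Rpl41 lowest and Rps27, Rpl10a, Rpl3, Rps6 and Rpl4 near or above 0.

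The largest falls were led by genes of very short proteins. Rpl41, the smallest ribosomal protein, had 432, 654, 662 and 931 CPM in the EIF2A libraries at 3 h, against 702, 1405, 1573 and 1821 CPM at 0 h (replicates 1 to 4). In GFP it had 418, 354, 372 and 457 CPM at 3 h, against 685, 663, 701 and 632 CPM at 0 h. All GFP libraries at 3 h lay below all of those at 0 h, whereas in EIF2A the replicate 4 library at 3 h exceeded the replicate 1 library at 0 h. The log2 fold change was -1.04 ± 0.26 in EIF2A (SE, adjusted p = 0.0034) and -0.74 ± 0.26 in GFP (adjusted p = 0.031).

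Rpl39, another short protein, which lines the peptide exit tunnel, had 67.2, 82.2, 86.2 and 79.4 CPM in EIF2A at 3 h and 106, 158, 142 and 147 CPM at 0 h. The GFP libraries had 81.9, 55.7, 54.7 and 53.2 CPM at 3 h and 126, 88.8, 87.9 and 93.3 CPM at 0 h. Each group at 3 h lay wholly below its 0 h group. Its log2 fold change was -0.81 ± 0.17 in EIF2A and -0.69 ± 0.17 in GFP (SE, adjusted p = 0.00066 and 0.0030).

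Rps28, a small-subunit protein near the mRNA exit, had 79.1, 83.8, 83.1 and 99.9 CPM in EIF2A at 3 h and 111, 134, 158 and 168 CPM at 0 h. GFP libraries had 78.3, 61.5, 64.5 and 69.5 CPM at 3 h and 122, 106, 106 and 95.8 CPM at 0 h. Neither construct's groups overlapped. The log2 fold changes were -0.72 ± 0.14 and -0.65 ± 0.14 (SE, EIF2A and GFP). Rps25 at -0.62 and Rpl38 at -0.61 completed the 6 lowest in GFP, and Rps29 at -0.70 and Rps21 at -0.66 those in EIF2A, with Rpl11 in both.

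Non-overlap was common among members. All 4 libraries at 3 h lay below all 4 at 0 h for 22 of 76 members in EIF2A and 42 in GFP, against 12.8% and 18.3% of all genes. The 3 h library was below the 0 h library of the same number in 4 of 4 pairs for 69 members in EIF2A and 71 in GFP, against 33.0% and 34.9% of all genes.

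Of 21 members with 600 to 1300 coding bases, 4 passed as lower in EIF2A and 6 in GFP, and 0 as higher. Of all tested genes of this length 18.0% and 16.0% were lower. A few of these members had log2 fold changes near or above 0. Rpl3, a core protein of the large subunit near the peptidyl transferase centre, had 299.7, 428, 429.96 and 488 CPM in EIF2A at 3 h and 289, 415, 425 and 463 CPM at 0 h. Levels in GFP were 320, 295, 287 and 323 CPM at 3 h and 311, 279.7, 289 and 284 CPM at 0 h. Both pairs of groups overlapped, and the log2 fold changes were 0.05 ± 0.16 in EIF2A and 0.07 ± 0.16 in GFP (SE).

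Rpl10a, a protein of the L1 stalk, had 135, 221, 218 and 270 CPM in EIF2A at 3 h and 142, 181, 200.5 and 211 CPM at 0 h. Levels in GFP were 143, 138, 144 and 155 CPM at 3 h and 139, 137, 147 and 133 CPM at 0 h. The EIF2A libraries of replicates 2 to 4 were higher at 3 h and replicate 1 was not. The log2 fold change was 0.20 ± 0.19 in EIF2A (SE, adjusted p = 0.45), or 0.17 ± 0.06 with the replicate block (adjusted p = 0.019), and 0.06 ± 0.19 in GFP.

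Rps6, the ribosomal substrate of S6 kinases used as a readout of mTORC1, had 162, 173, 168 and 192 CPM in EIF2A at 3 h and 159, 164, 169 and 189 CPM at 0 h. In GFP it had 173, 139, 135 and 150.03 CPM at 3 h and 180.2, 145, 141 and 138 CPM at 0 h. These values overlapped throughout, with log2 fold changes of 0.03 ± 0.12 and -0.02 ± 0.12 (SE, EIF2A and GFP). The S6 kinase substrate is the protein, so its phosphorylation is not measured here.

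Rpl4, which reaches into the exit tunnel of the large subunit, had 1036, 1243, 1236 and 1331 CPM in EIF2A at 3 h and 1061, 1289, 1340 and 1311 CPM at 0 h. In GFP it had 1195, 894, 903 and 868 CPM at 3 h and 1310, 929, 935 and 916 CPM at 0 h. Its log2 fold changes, -0.05 ± 0.15 in EIF2A and -0.08 ± 0.15 in GFP, were smaller than their errors (SE).

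Rps27, a zinc-finger protein of the small subunit, started from a very low level. By edgeR over all 24 libraries with TMM scaling and no block or length correction, Rps27 was the only member that rose, in EIF2A. It had 2.28, 3.97, 4.56 and 4.44 CPM in EIF2A at 3 h and 2.83, 2.58, 2.39 and 2.37 CPM at 0 h. The GFP libraries had 3.38, 4.07, 3.67 and 3.03 CPM at 3 h and 2.55, 2.54, 2.46 and 2.04 CPM at 0 h. The groups did not overlap in GFP, and in EIF2A the replicate 1 library lay below the 0 h libraries. The log2 fold change was 0.58 ± 0.22 in EIF2A (SE, adjusted p = 0.042) and 0.56 ± 0.22 in GFP (adjusted p = 0.051), on 23 to 88 counts a library. Its paralog Rps27l, a p53 target, fell by 0.44 in EIF2A and by 0.46 in GFP on the log2 scale (adjusted p = 0.0012 and 0.00088). Without replicate 1, by edgeR with no block, Rps27 rose by 0.81 in EIF2A and by 0.60 in GFP (adjusted p = 0.00051 and 0.0024). Rpl10a then also rose in EIF2A, by 0.26 (adjusted p = 0.017).

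**Figure D3:**
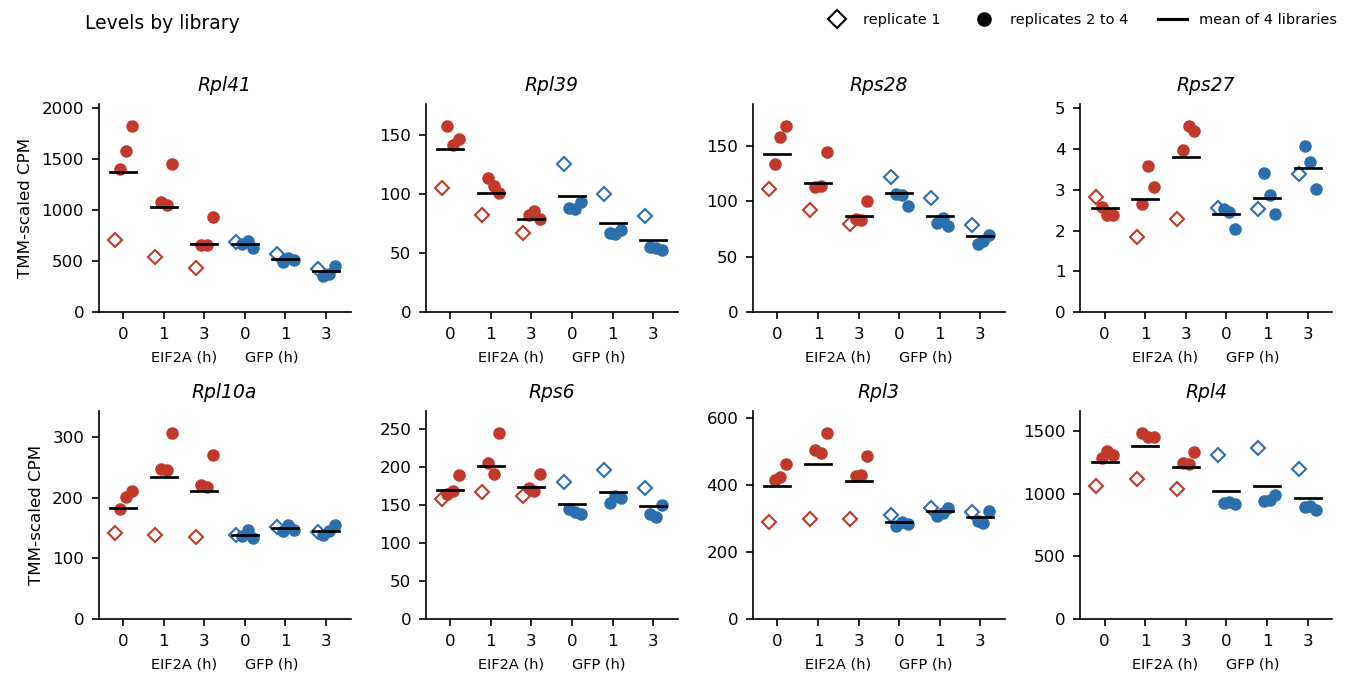
TMM-scaled CPM of 8 ribosomal protein genes in every library, by hours of thapsigargin, EIF2A left and GFP right in each panel. Points are libraries (open diamonds are replicate 1) and bars are means of 4; Rpl41, Rpl39 and Rps28 step down with time in both constructs, whereas Rpl10a, Rps6, Rpl3 and Rpl4 do not, and Rps27 stays under 5 CPM.

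Members with special roles mostly followed the group. In the stalk, which recruits translation factors, Rplp0 fell in both constructs, at -0.47 ± 0.14 in EIF2A and -0.43 ± 0.14 in GFP (SE, adjusted p = 0.0092 and 0.018). Its partners Rplp1, at -0.47 and -0.50, and Rplp2, at -0.42 and -0.43, had changes of the same size without passing (adjusted p from 0.084 to 0.14) and passed with the replicate block. Rpsa, which is also a laminin receptor, was at -0.58 in EIF2A and -0.38 in GFP (adjusted p = 0.081 and 0.27), and fell in both with the block (adjusted p = 1.5e-09 and 7.4e-07).

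Rps27a, made as a fusion with ubiquitin, fell in both, at -0.38 in EIF2A and -0.37 in GFP (adjusted p = 0.0030 and 0.0035). Rpl5 and Rpl11 form with 5S RNA the particle that binds MDM2 when ribosome assembly fails. Rpl11 had 194, 210, 217 and 242 CPM in EIF2A at 3 h and 289.5, 347, 373 and 369.995 CPM at 0 h, and 208, 152, 154 and 162 CPM in GFP at 3 h against 303, 253, 249 and 234 CPM at 0 h. No group overlapped its 0 h group, and the log2 fold changes were -0.68 ± 0.13 and -0.62 ± 0.13 (SE, EIF2A and GFP). Rpl5 was at -0.19 and -0.18 and did not pass (adjusted p = 0.32 and 0.35), but fell with the block (adjusted p = 0.00075 and 0.0014).

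Rps19 and Rpl35a, both mutated in Diamond-Blackfan anaemia in humans, were at -0.48 and -0.25 in EIF2A and at -0.39 and -0.37 in GFP. Without the block only Rpl35a in GFP passed (adjusted p = 0.026). With it Rps19 fell in both (adjusted p = 1.2e-09 in EIF2A and 4.4e-08 in GFP), as did Rpl35a (3.4e-05 and 1.1e-07). Rps4x, the X-linked copy of a small-subunit protein, fell by 0.43 in EIF2A and by 0.41 in GFP on the log2 scale (adjusted p = 0.033 and 0.042). Rpl10, a protein that matures late on the large subunit, was at -0.11 in EIF2A (adjusted p = 0.22, or 0.027 with the block) and fell by 0.26 on the log2 scale in GFP (adjusted p = 0.0058).

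Both subunits took part. Of 31 tested small-subunit genes, 19 fell in EIF2A and 16 in GFP, with medians of -0.43 and -0.39. Of 45 large-subunit genes, 16 and 19 fell, with medians of -0.38 and -0.39. Of all tested genes 16.6% fell in EIF2A and 14.6% in GFP. The summed counts of small over large subunit genes were 0.642 to 0.661 in EIF2A at 3 h against 0.672 to 0.678 at 0 h, and 0.650 to 0.683 in GFP at 3 h against 0.675 to 0.699 at 0 h. The ratio was lower at 3 h within all 8 pairs of replicate number and construct.

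The size of the fall went with coding length. The coding lengths of the members ran from 75 to 1257 bases (median 455), shorter than the median of 1389 bases over tested genes. Rank correlations between coding length and log2 fold change over the 76 members were 0.48 in EIF2A and 0.52 in GFP, and 0.24 and 0.25 over 13085 genes, as descriptions. The points of one comparison share their libraries.

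The members' median in GFP was -0.58 for coding lengths under 300 bases (10 genes) and -0.43 from 300 to 450 bases (26 genes). It was -0.37 from 450 to 600 bases (19 genes) and -0.29 from 600 to 1300 bases (21 genes). All tested genes of these classes had medians of -0.56, -0.33, -0.24 and -0.07. In EIF2A the members were at -0.65, -0.44, -0.37 and -0.28, and all genes at -0.62, -0.32, -0.27 and -0.07. In the shortest class the members thus lay close to other genes, and in the longest class they lay about 0.2 lower.

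With a trend on transcript length removed from each library, 16 members fell and 3 rose in EIF2A, and 11 fell and 1 rose in GFP. Of all genes 17.4% fell and 19.1% rose in EIF2A with that correction, and 16% and 17.1% in GFP. With all 4 replicates kept, the share of members that fell was thus near the background. The members' median was -0.12 in both constructs, against -0.020 and -0.031 over all genes. The members that then fell in both were Rpl11, Rpl23, Rpl27a, Rpl37, Rpl39, Rplp0, Rps2, Rps3, Rps24 and Rps26. Rpl11 was at -0.45 in EIF2A and -0.39 in GFP, and Rpl39 at -0.47 and -0.36. Other falls given above were lost: Rps28 was then at -0.17 in EIF2A and -0.10 in GFP (adjusted p = 0.090 and 0.32), and Rps27l at -0.04 and -0.06 (adjusted p = 0.64 and 0.44). Rpl38, at -0.14 and -0.11, and Rps29, at -0.23 and -0.12, did not pass either. Rpl41 fell by 0.59 on the log2 scale in EIF2A (adjusted p = 0.020) and was at -0.31 in GFP (adjusted p = 0.24). The annotated transcripts of Rpl23, Rpl27a, Rpl37, Rpl39, Rpl41, Rps3 and Rps24 are much longer than their coding parts, so that their correction is uncertain. That of Rpl39 has 612 bases, 153 of them coding. After the correction, transcript length and log2 fold change over the 76 members had rank correlations of -0.44 in EIF2A and -0.52 in GFP, as descriptions. With replicate 1 also left out, 35 of 76 members fell and 7 rose in EIF2A, against 31.7% and 30.2% of all genes. In GFP 33 fell and 3 rose, against 32.5% and 30.1%. The share that fell was then above that of all genes in both constructs. Whether the link with length arose in the cells or in library preparation was not tested.

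**Figure D4:**
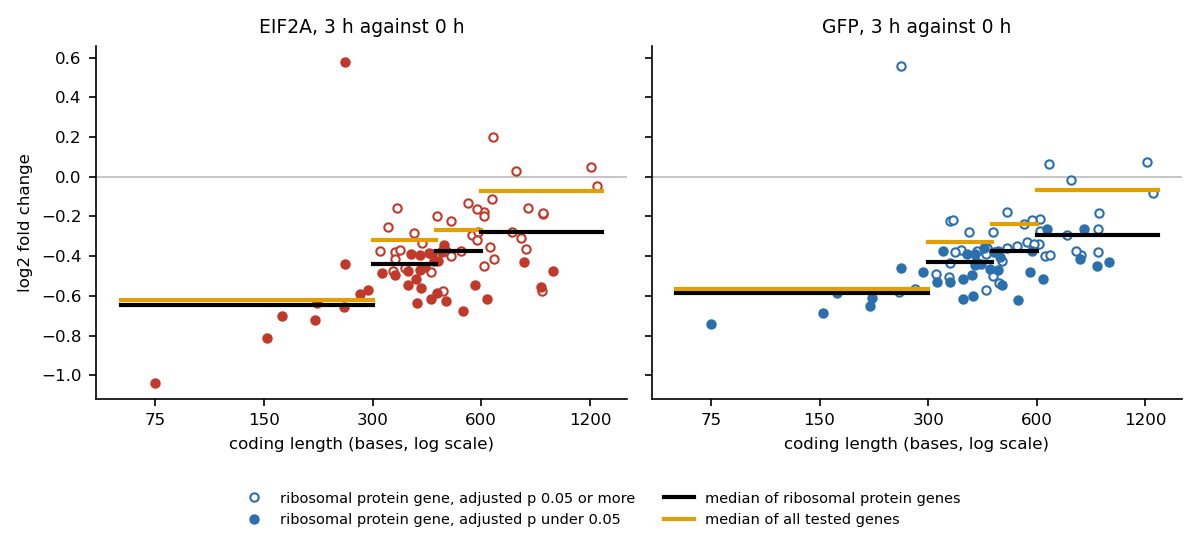
Log2 fold change at 3 h against 0 h of 76 ribosomal protein genes by coding length in bases (log scale), EIF2A left and GFP right. Filled points passed an adjusted p of 0.05, and bars give the medians of the members (black) and of all tested genes (yellow) in 4 length classes; both medians fall as genes get shorter, and they nearly meet below 300 bases.

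At 1 h the changes were small. No member passed in either construct by edgeR, where 3.94% of all genes fell and 6.54% rose in EIF2A and 2.39% and 5.78% in GFP. DESeq2 called 0 members in each construct, against 5.97% of all genes lower and 8.01% higher in EIF2A and 4.36% and 7.01% in GFP. The median was -0.04 in EIF2A and -0.13 in GFP, against -0.016 and -0.0058 over all genes. In GFP it was negative for every replicate number, from -0.21 to -0.10. In EIF2A it was -0.16, -0.0039, -0.10 and 0.03 for replicates 1 to 4.

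With the replicate block, 21 members fell and 10 rose at 1 h in EIF2A, against 23.3% and 21.9% of all genes. In GFP 40 fell and 2 rose, against 21.6% and 22.9%. Without replicate 1, 12 fell and 8 rose in EIF2A, against 21.8% and 20.2% of all genes, and 24 fell and 1 rose in GFP, against 18.2% and 21.3%. The lowest were those of 3 h: with the block Rpl39 was at -0.44 ± 0.05 in EIF2A and -0.39 ± 0.05 in GFP, and Rpl41 at -0.42 ± 0.07 and -0.36 ± 0.07 (SE). The members that rose in EIF2A were led by Rpl10a at 0.31 ± 0.06, Rps6 at 0.24 ± 0.05 and Rpl3 at 0.21 ± 0.05, and those in GFP were Rps6 and Rpl3, both at 0.15 ± 0.05 (SE).

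Per library, Rpl39 had 82.8, 114, 107 and 101 CPM in EIF2A at 1 h and 101, 66.9, 66.6 and 70.1 CPM in GFP at 1 h. Rpl10a had 138, 247, 245 and 306 CPM in EIF2A at 1 h and 152, 144, 155 and 147 CPM in GFP. For Rpl10a the EIF2A libraries of replicates 2 to 4 were thus highest at 1 h among the 3 times, and Rpl39 lay between its 0 h and 3 h levels.

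Between constructs, the members were higher in EIF2A than in GFP in replicates 2 to 4 and lower in replicate 1. Over all 4 replicates no member passed at 0 h or 3 h and 1 passed at 1 h, by edgeR, and none was lower. Of all genes 0.00727%, 0.69% and 0% were higher and 0.0145%, 0.334% and 0% lower at 0, 1 and 3 h. The 1 was Rpl36a at 0.69 (adjusted p = 0.047). The medians were 0.39, 0.46 and 0.37 at 0, 1 and 3 h. DESeq2 called 12, 53 and 2 members higher, against 2.36%, 8.22% and 0.937% of all genes. With the replicate number as a block shared by both constructs, 10, 50 and 4 were higher and none lower. Of all genes 5.27%, 10.3% and 4% were then higher and 4.42%, 10.7% and 3.66% lower. Same-numbered libraries of the constructs did not deviate together (r from -0.66 to -0.16), so the data gave no ground for this block.

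Without replicate 1, 72, 73 and 73 of 76 members were higher in EIF2A at 0, 1 and 3 h and none was lower. Of all genes 31.9%, 32.7% and 32.5% were then higher and 32.9%, 37.3% and 35.1% lower. The medians without replicate 1 were 0.54, 0.67 and 0.52. By replicate number they were -0.16, 0.43, 0.50 and 0.66 at 0 h, -0.21, 0.68, 0.58 and 0.80 at 1 h, and -0.11, 0.52, 0.48 and 0.61 at 3 h.

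Other features of the libraries moved with this difference. Reads outside any gene made up 13.3 to 17.9% in the EIF2A libraries of replicates 2 to 4 and 10.7 to 12.99% in all other libraries. The 77 mitochondrial ribosomal protein genes, which form a separate ribosome, also took more of the counts, at 0.539 to 0.595% in EIF2A replicates 2 to 4 and 0.425 to 0.461% in GFP replicates 2 to 4. With the length trend removed as well as replicate 1, 41, 48 and 43 members were higher and 6, 6 and 4 lower, against 30.2%, 31.5% and 32.5% of all genes higher and 30.4%, 33.6% and 31.1% lower. The part of these features in the difference was not tested, and batch and construct cannot be told apart, since the labels name no batch.

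**Figure D5:**
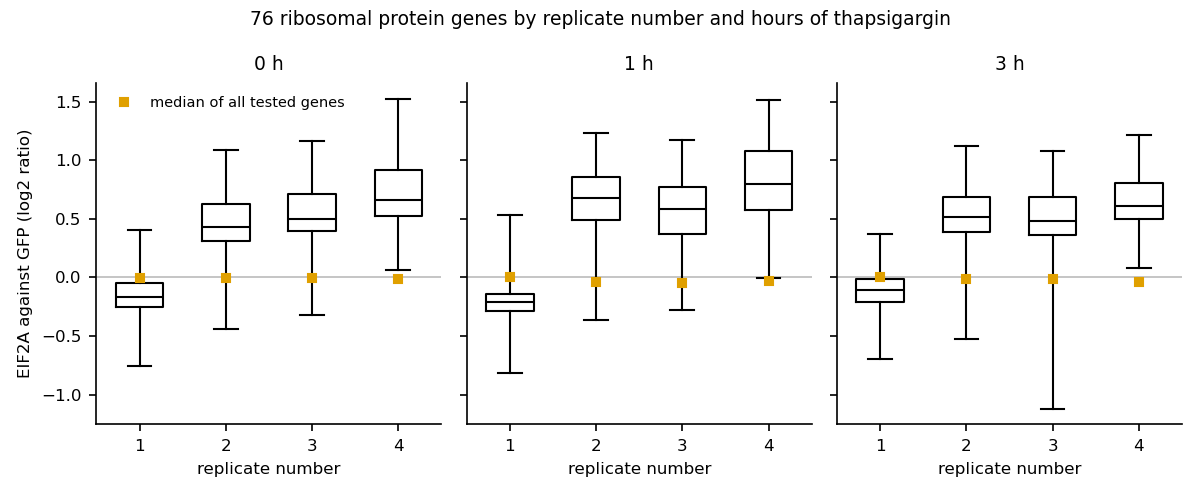
Log2 ratio of EIF2A over GFP for 76 ribosomal protein genes at 0, 1 and 3 h of thapsigargin, for each replicate number. Boxes show the quartiles, whiskers the full range and squares the median of all tested genes; the boxes of replicates 2 to 4 lie above 0 and those of replicate 1 below it at each time.

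Rpl41 led here too. At 0 h it had 702, 1405, 1573 and 1821 CPM in EIF2A, against 685, 663, 701 and 632 CPM in GFP, so that the groups did not overlap, with replicate 1 of EIF2A just above the highest GFP library. The log2 difference was 1.04 ± 0.26 (SE, adjusted p = 0.10), and 1.26 ± 0.14 without replicate 1 (adjusted p = 1.4e-07). At 1 h and 3 h it was 0.98 and 0.74, or 1.23 and 0.92 without replicate 1.

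Rpsa at 0.83, Rps15 at 0.72 to 0.89 and Rpl36 at 0.71 to 0.86 also led, in the comparisons where each was among the 3 highest. Rpl30, Rpl10, Rpl34 and Rps27 were the lowest, from -0.24 to 0.17, and none of them passed over 4 replicates. Of these, Rpl30, Rpl34 and Rps27 have under 10 CPM. Without replicate 1, Rpl10 was higher in EIF2A at 1 h, by 0.24 ± 0.05 (SE, adjusted p = 0.00039).

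Whether the response to thapsigargin differed between the constructs depended on the fit. For the interaction, the response in EIF2A minus that in GFP, 0 members passed at 1 h or at 3 h by edgeR and by DESeq2, and 0 had an unadjusted p under 0.05. Of all genes 0% passed in either direction. With the replicate block alone 0 members passed again, and of all genes 0.00727% were lower at 1 h and 0.0145% at 3 h. The medians were 0.08 at 1 h and -0.0053 at 3 h, with ranges of -0.10 to 0.27 and -0.29 to 0.15. The lowest at 3 h was Rpl41 at -0.29. These limits apply to 4 libraries a group with replicate 1 included, and without it again 0 members passed, where 0.488% of genes were higher and 0.328% lower at 1 h and 1.55% and 2.57% at 3 h.

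With the replicate block and replicate 1 left out together, 18 members passed higher at 1 h, 23.7% against 3.89% of all genes, and 3 passed lower at 3 h, against 8.59% of all genes. The 3 were Rpl41 at -0.35, Rpsa at -0.24 and Rpl13a at -0.15, and those at 1 h were led by Rpl8 at 0.32 and Rpl10a at 0.33. Without replicate 1 the numbers no longer met the rule for pairing, as same-numbered libraries had correlations down to -0.026.

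Of 4 tested relatives outside the rule, Rpl36al and Rps3a1 fell in both constructs, at -0.30 and -0.32 in EIF2A and -0.43 and -0.29 in GFP. Rpl7l1, which acts in ribosome assembly, rose by 0.15 in GFP (adjusted p = 0.044). Of 9 tested chaperones and loading factors, which carry ribosomal proteins to the nucleus and onto pre-ribosomes, 5 rose, 1 fell and 3 did not pass in each construct, against 19.6% of all genes higher and 16.6% lower in EIF2A and 18.4% and 14.6% in GFP. The list had medians of 0.43 in EIF2A and 0.42 in GFP. Those that rose include Ltv1, an assembly factor of the small subunit, at 0.71 and 0.59, Pdcd2, a chaperone of Rps2, at 0.84 and 0.63, and Rrs1, which loads the 5S particle, at 0.61 and 0.73 (EIF2A and GFP).

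Of 23 other TOP mRNAs, those of elongation factors and similar genes, 3 rose and 3 fell in each construct, shares no higher than the 19.6% and 16.6% of all genes in EIF2A and the 18.4% and 14.6% in GFP, with medians of -0.10 in EIF2A and -0.18 in GFP. Eef1g, a subunit of elongation factor 1, fell by 0.32 and by 0.35, and Ybx1, an RNA-binding protein, by 0.41 and by 0.37 on the log2 scale (EIF2A and GFP). Snhg1, a non-coding host of small nucleolar RNAs, rose by 2.29 and 2.12. Of 17 regulators of TOP translation, 5 rose and 5 fell in EIF2A (29.4% each way) and 3 and 3 in GFP (17.6% each way, near the shares of all genes). Eif4ebp1, an inhibitor of cap-dependent translation, rose by 1.16 and 1.35 and Mlst8, an mTOR partner, by 0.36 and 0.42, while Larp1, which binds the TOP tract, fell by 0.62 and by 0.40 (EIF2A and GFP).

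Of 18 genes of ribosome quality control, 5 rose and 2 fell in EIF2A (27.8% and 11.1%) and 5 and 1 in GFP (27.8% and 5.56%), beside 19.6% and 16.6% of all genes in EIF2A and 18.4% and 14.6% in GFP. Zfp598, the ligase that marks collided ribosomes, rose by 0.63 and 0.61, Gtpbp2, a ribosome rescue factor, by 0.37 and 0.39, and the ligase Rnf10 fell by 0.48 and by 0.36 on the log2 scale (EIF2A and GFP). Of 7 genes of the p53 response to free ribosomal proteins, 2 rose and 2 fell in each construct. Trp53 rose by 0.65 and 0.47, while its targets Sesn1 and Ccng1 fell by 1.05 and 0.63 in EIF2A and by 0.77 and 0.54 in GFP on the log2 scale.

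Of 77 tested mitochondrial ribosomal protein genes, 21 rose and 20 fell in EIF2A, or 27.3% and 26.0%, against 19.6% and 16.6% of all genes. In GFP 16 rose and 19 fell, or 20.8% and 24.7%, against 18.4% and 14.6% of all genes. Their medians were -0.12 in both. Mrps31, Mrps30 and Mrps22, all of the small mitochondrial subunit, rose by 0.70, 0.93 and 0.84 in EIF2A and by 0.60, 0.78 and 0.69 in GFP. The cytosolic members that fell were a larger share of their list, 46.1% in each construct, than the mitochondrial ones, at 26.0% in EIF2A and 24.7% in GFP, and no test of that difference was made.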

How the data were processed

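Per the labels' protocols, RNA was extracted with RNeasy columns and made into TruSeq stranded mRNA libraries. The authors deposited 1 table of gene counts. Per the submitters' processing notes, bcl2fastq and STAR were used with mm10. The counting program, annotation, strand setting and software versions: not given in the sources used here. Reads in no feature (10.7 to 17.9% of each library) and ambiguous reads (0.518 to 0.592%) were left out of totals.

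Libraries held 10.5 to 22.2 M counts. Genes passing edgeR's filter (minimum count 10, total 15) numbered 13761. All 24 libraries entered 1 quasi-likelihood fit (R 4.3.3, edgeR 4.0.16, limma 3.58.1) with TMM scaling, a mean for each of 6 groups and 18 residual degrees of freedom, and p-values were adjusted by Benjamini-Hochberg over all genes at 0.05. Alternatives were DESeq2 1.42.0, RLE scaling, library totals, no filter, a replicate block, replicate 1 left out, each library left out, and a loess trend (span 0.3) on transcript length (GENCODE M21) removed. The fits were tested on simulated data. Within a construct, same-numbered libraries deviated together (r from 0.51 to 0.93), and this was taken as pairing of the numbers across times. Without replicate 1, r ran from -0.026 to 0.22. An outlying replicate 1 moves the deviations of the others together, so the pairing is uncertain for the other numbers. Across constructs r ran from -0.66 to -0.16, which gave no ground for pairing. The block fit between constructs nonetheless shared its replicate numbers across them. Members named were the 6 lowest and 4 highest at 3 h in each construct, the 3 lowest and 3 highest between constructs at each time, the extremes of level per kb and members of listed special roles; of each other list, the 3 with the smallest p in GFP at 3 h. Rpl4 and Rpl36a were named after their values were seen. The members and gene lists were chosen with earlier results of these data known. Values of 1 member are not reported here.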

Additional observations from a re-analysis of the deposited data

Results flagged for a closer look

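Replicate 1 stood apart from the other libraries of its group in several values, by the gap of the farthest library relative to the range of 4. Among 456 such comparisons of 76 tested members in 6 groups, 78 passed, 75 of them through replicate 1. Chance gives about 1 in 20 for a single comparison. The members of a group share the same 4 libraries, so the comparisons are not independent and their count cannot be weighed against chance. The share of counts on ribosomal protein genes was 2.74% in GFP replicate 1 at 0 h. Among the genes described library by library, replicate 1 was highest in GFP for Rps6 at 180.2 CPM at 0 h. Rpl4 had 1310 CPM (1309.5) at 0 h, 1364 CPM at 1 h and 1195 CPM at 3 h in GFP replicate 1, and Rpl39 had 125.5, 100.5 and 81.9 CPM. In EIF2A replicate 1, Rpl4 was lowest at 1 h, at 1116 CPM. The cause was not tested.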

How the results depend on the processing

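Counts are of 76 tested members and the cause of each change was not tested. The replicate block was set within each construct for comparisons of times, and was shared by both constructs for comparisons between them. With it, 21 were lower and 10 higher in EIF2A at 1 h, and 70 and 2 at 3 h. In GFP 40 were lower and 2 higher at 1 h, and 69 and 1 at 3 h. EIF2A over GFP gave 10, 50 and 4 higher at 0, 1 and 3 h. With replicate 1 left out in all groups the counts were 12 and 8, 66 and 2, 24 and 1, and 69 and 1, with 72, 73 and 73 higher between constructs. With both changes they were 22 and 16 (of all genes 26.9% lower and 24.7% higher, near the members' shares), 69 and 2 (34.4% and 33.8%), 51 and 2 (25.1% and 26.9%), and 70 and 2 (34.8% and 35.4%), with 72, 73 and 73 (34.5%, 34.9% and 35.2% higher); only here did interactions pass, 18 higher at 1 h (3.89% of all genes) and 3 lower at 3 h (8.59%).

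With the length trend removed, 2 were higher in EIF2A at 1 h, 16 lower and 3 higher at 3 h, 11 lower and 1 higher in GFP at 3 h, and 0 higher between constructs at 1 h. With replicate 1 also left out, 5 were lower and 15 higher in EIF2A at 1 h (of all genes 21.5% and 20.3%, the 20.3% near the members' share), 35 and 7 at 3 h (31.7% and 30.2%), 7 and 6 in GFP at 1 h (18.9% and 19.4%) and 33 and 3 at 3 h (32.5% and 30.1%). Between constructs 41, 48 and 43 were then higher and 6, 6 and 4 lower. Single log2 values changed sign with both: Rps6 0.20 and Rpl35a 0.0316 in GFP at 3 h (0.0308 with length alone), Rpl35a 0.21, Rpl10 0.12 and Rpl34 0.40 in EIF2A at 3 h, and between constructs Rpl10 -0.30 at 0 h and -0.19 at 1 h, Rpl34 -0.49 at 0 h and Rpl30 -0.50 at 1 h.

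Library totals gave 20 lower in EIF2A and 21 lower with 1 higher in GFP at 3 h. RLE scaling and DESeq2 gave 0 higher in EIF2A at 3 h. Between constructs DESeq2 gave 12, 53 and 2 higher, RLE scaling 4 at 1 h and no filter 0 at 1 h. Shares without the 10 most abundant other genes were 2.76% in GFP at 0 h and 2.52% at 1 h.

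Leaving out 1 library, members lower at 3 h ran from 20 to 50 in EIF2A and 18 to 46 in GFP, and higher from 0 to 1 in both. The count fell by more than 1.5 times without EIF2A 0 h replicate 3 (22) or 4 (20) or EIF2A 3 h replicate 1 (21), and without GFP 0 h replicate 1 (18) or GFP 3 h replicate 2 (19) or 3 (18). At 1 h, 0 to 2 were lower in each construct and 0 to 1 higher in EIF2A. Between constructs 0 to 49, 0 to 68 and 0 to 40 were higher at 0, 1 and 3 h, the most without EIF2A replicate 1. The shares of all genes in these refits are not given here, so the counts are no result about the members alone. With replicate 1 left out in all groups, 31.9%, 32.7% and 32.5% of all genes were higher. Mean shares of counts on the members ran from 2.99 to 3.35, 2.87 to 3.32 and 2.50 to 2.83% in EIF2A and 2.35 to 2.49, 2.15 to 2.33 and 1.94 to 2.09% in GFP at 0, 1 and 3 h. Members under 10 CPM, and copies sharing reads, limit single values.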
